A study of Homo sapiens with 12 samples.

Results

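The genes described here are 44 interferon-stimulated genes, measured by RNA sequencing in HT29 cells, a human colorectal adenocarcinoma line. The members were taken from a list of symbols and matched to the Ensembl gene IDs of the deposited count table: all 44 were found among its 60675 gene IDs, and 42 were among the 15374 genes with enough counts to be tested. TRIM22 and SAMD9L, with 69 and 76 counts over all libraries, were not tested. Cells were exposed for 24 h to a water extract of Aconitum carmichaeli Debeaux (ACD) at a low dose of 20 µg/mL, a medium dose of 100 µg/mL and a high dose of 500 µg/mL, or to vehicle, phosphate-buffered saline with 2% DMSO, with 3 libraries in each of the 4 groups. The labels have a limit. Their titles and treatment fields name the ACD extract, while the treatment note describes an extract of another material, Poria cocos. The 2% DMSO is that of the solution before it was added to the medium. The study added an equal volume of extract at every dose, from a stock in PBS with 2% DMSO. The diluent of the lower doses, and so their final amount of DMSO, is not given in the sources used here. All groups share the 1 cell line, and nothing states that the 3 libraries of a group came from separate cultures, so p-values measure the spread between libraries, which may be technical.

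Interferons are secreted proteins by which a cell that senses foreign nucleic acid warns itself and its neighbours. Type I interferons bind IFNAR1 and IFNAR2, and the kinases JAK1 and TYK2 then activate a complex with STAT2 and IRF9 that binds the interferon-stimulated response element (ISRE). Interferon gamma acts through IFNGR1 and IFNGR2, and its signal reaches DNA at the gamma-activated sequence (GAS). The induced proteins sense, cut or sequester viral RNA, block membrane fusion, and attach the ubiquitin-like protein ISG15 to other proteins. A second set of genes, the chemokines of the NF-κB pathway such as CXCL1, CXCL8 and CCL20, attracts neutrophils and lymphocytes and can be induced without interferon. The question asked of these libraries was whether an interferon response went with a rise of those chemokines.

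Promoter sequences are shown because they are the DNA through which the 2 pathways act. They are from RefSeq on GRCh38.p14, a window of 250 bases before to 50 after each gene start, and 35 of the 44 members had an entry. The first 3 below are DTX3L, the one member called against vehicle, with ISG15 and IRF1 as the textbook ISRE and GAS cases, and the last 2 are chemokines from outside the list, chosen for contrast. Capitals mark the matches to the named motif, and each sequence is read 5′ to 3′ in the direction of the gene.
DTX3L, ISRE core, plus strand, chr3:122564322-122564351, across the gene start: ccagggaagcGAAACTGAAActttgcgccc
ISG15, ISRE core, 2 overlapping matches, plus strand, chr1:1013370-1013419: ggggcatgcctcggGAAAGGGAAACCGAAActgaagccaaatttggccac
IRF1, GAS, minus strand, chr5:132490869-132490917: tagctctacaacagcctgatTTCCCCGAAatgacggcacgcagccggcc
CXCL1, NF-κB site, plus strand, chr4:73869295-73869344: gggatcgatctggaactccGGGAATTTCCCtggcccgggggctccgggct
CCL20, NF-κB site, plus strand, chr2:227813743-227813792: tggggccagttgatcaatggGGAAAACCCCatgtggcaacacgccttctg

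The ISRE core was searched as GAAANNGAAA and the GAS as TTCNNNGAA, on both strands, and the NF-κB site by its usual degenerate consensus; matches of different motifs may overlap. An ISRE core was found in 24 of 35 member promoters (68.6%), against 3.65% of all 27305 promoters in the table. A GAS was found in 31.4% of the members' promoters and 7.88% of all, and an NF-κB site in 22.9% and 5.72%. Among the NF-κB chemokines, 7 promoters were present, 0 held an ISRE core and 6 held an NF-κB site. The CXCL10 promoter held an ISRE core and NF-κB sites. These matches describe letters in a fixed window and not bound sites.

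Totals ranged from 15941255 to 33866644 expected counts per library, with a median of 23833237, and CPM denotes the count scaled to 1e6 counts of the library size after TMM normalization, which adjusts each total for its RNA composition. Of 11 colon epithelium markers 11 had enough counts to be tested, and KRT8, a keratin and the highest of them, lay between 5637 and 7321 CPM. At the high dose 1 of these markers was called against vehicle, higher (9.09%), beside 5.77% of all genes. From the low to the high dose 1 rose and 2 fell (27.3%), beside 2.98% of all genes. Over all 12 libraries, the leukocyte gene PTPRC had 4 counts and CLEC4C, a marker of the interferon-producing plasmacytoid dendritic cell, had 0. Of 6 leukocyte markers 3 were tested, and their summed level was 1266 to 1892 CPM in the high-dose libraries and 1411 to 1836 CPM in the others, nearly all of it LYZ, which intestinal epithelium also expresses. One of the 3, the integrin gene ITGAM, was higher at the high dose, from 1.49, 1.00 and 1.67 CPM with vehicle to 2.16, 2.05 and 2.64 (log2 fold change 0.77, edgeR adjusted p = 0.0473, and 0.85 without high replicate 2). LYZ was not called with all libraries, but without high replicate 2 it was lower at the high dose (log2 fold change −0.36, edgeR adjusted p = 0.00263). Their part in the results was not tested. Fibroblast and endothelial marker lists each had 1 tested gene, with sums of at most 2.571 CPM. One library stood apart, the high-dose replicate 2. Its log2 CPM differed from the mean of its group's other libraries with an SD of 0.502 over 10626 genes, against 0.102 to 0.293 for the other 11, so the main results that use it are also given without it. The mitochondrial share of counts was 14% to 16.6% at the high dose and 7.41% to 11% elsewhere and its part in the results was not tested beyond this: leaving those genes out of the library sizes changed no count of members called. Since these are bulk samples, fewer cells of a type and less RNA per cell cannot be told apart.

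Without treatment the members spanned a wide range of levels. On a per-length scale (mean vehicle CPM per kilobase of merged exons), LGALS3BP, a secreted galectin-binding glycoprotein, was the highest at 224.5 ± 11.4 (SD, n = 3), followed by BST2, the tetherin that holds budding virions at the cell surface, at 50.2 ± 8.67. ISG15 followed at 33.5 ± 9.52, IFITM2 at 21.2 ± 1.58, IFI6 at 20.8 ± 10.2 and DTX3L at 16.7 ± 0.99; IFITM2, IFI6 and DTX3L did not differ beyond the spread of IFI6. The lowest of the tested members were IFI44L at 0.10, MX2 at 0.10 and XAF1 at 0.13 on the same scale. The interferons themselves were near absent. IFNA2, IFNK, IFNW1 and IFNG had no count in any of the 12 libraries, which allows a level of up to 0.212 CPM in the smallest library, on the same TMM scale (3 counts; counting error only), IFNB1 had 3 counts in all and IFNL1 had 13. Only IFNE, an interferon of epithelia, was tested among 10 interferon genes.

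The comparison with vehicle showed no interferon-stimulated gene upregulated at the high dose and 1 lower, DTX3L. A gene is called here at an edgeR quasi-likelihood adjusted p under 0.05 over all 15374 genes, and a differentially expressed gene (DEG) must also differ by more than 1.5-fold. At the high dose 1 of 42 members was called, beside 5.77% of all genes (2.95% called lower), and 0 were DEGs, beside 2.93% of all genes. At an unadjusted p under 0.05, 1 member was higher (IFIT5, 2.38%), a smaller share than the 9.82% of all genes. Lower at that threshold were 5 members (11.9%), a share near the 10.3% of all genes. The members' median log2 fold change was −0.16, and 27 of 42 lay below 0; over all tested genes the median was 0.01 and 49.0% lay below 0. Without the high-dose replicate 2 the same single member was called and the median was −0.22.

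Neither smaller dose had a called member. The medium dose had 0 of 42, beside 1.01% of all genes, and the low dose 0 of 42, beside 0.124%; as DEGs there were 0 in either, beside 0.676% and 0.111%. At an unadjusted p under 0.05, the medium dose had 7 members higher and 0 lower, beside 5.09% and 6.6% of all genes, and the low dose 10 higher and 0 lower, beside 3.38% and 4.58%; DESeq2 fitted to all libraries called 1 and 0. The median log2 fold change was 0.19 for the medium dose, with 34 of 42 members above 0, and 0.24 for the low dose, with 38 above 0, while over all genes the medians were −0.01 and −0.00. Across the 3 doses, the same vehicle libraries serve each comparison. A linear trend over the 4 groups called 0 of 42 members, beside 5.74% of all genes, with 1 member higher and 2 lower at an unadjusted p under 0.05.

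**Figure D1:**
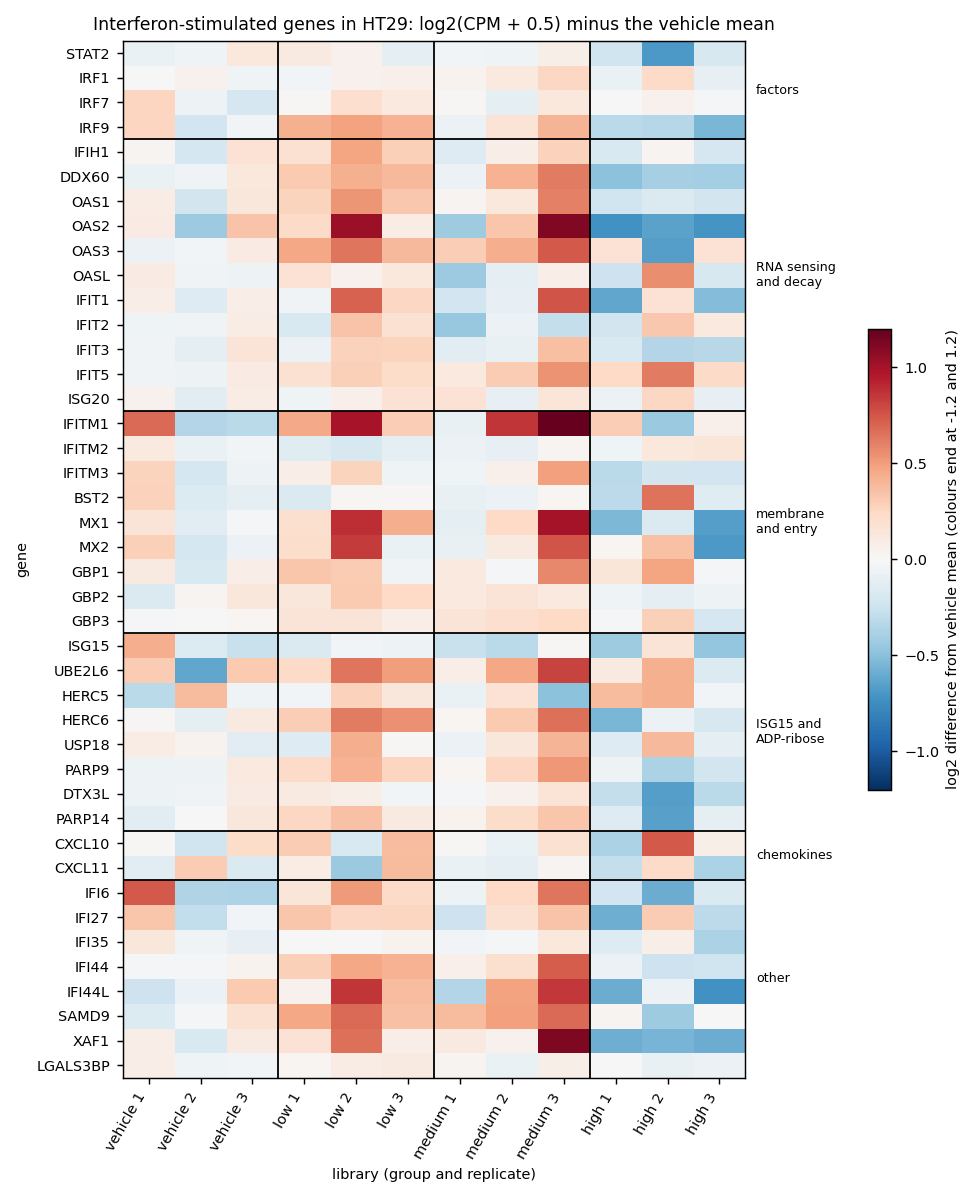
Heat map of the 42 tested interferon-stimulated genes (vertical axis, grouped by role) in the 12 libraries (horizontal axis), coloured by log2(CPM + 0.5) minus the vehicle mean. Low-dose libraries and the medium-dose replicate 3 are mostly red, and high-dose replicates 1 and 3 are mostly blue, with 9 and 5 of 42 genes above the vehicle mean in CPM; in high-dose replicate 2, 21 of 42 lie above it.

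The absence of a call at the low and medium doses depended on the test and on the libraries fitted. With all 12 libraries, DESeq2 called SAMD9 higher at the medium dose (DESeq2 adjusted p = 0.0297). High-dose replicate 2 enters the estimate of the spread shared by all groups. When high-dose replicate 2 was left out, SAMD9 and OAS3 were called higher at the low dose (edgeR adjusted p = 0.031 and 0.0283). At the medium dose SAMD9, OAS3 and IFIT5 were called (edgeR adjusted p = 0.0121, 0.0131 and 0.0472). None of these reached 1.5-fold. The share of all genes called in that fit is not given here, so a gain in calls over all genes cannot be told apart. SAMD9, a cytoplasmic protein that restricts poxviruses, measured 48.2, 53.5 and 61.4 CPM in the vehicle libraries, 74.8, 86.9 and 68.98 at the low dose, 70.4, 76.3 and 86.8 at the medium dose, against 55.4, 40.1 and 54.0 at the high dose. Its 6 low- and medium-dose libraries all lay above the vehicle libraries, at 1.41-fold and 1.43-fold the vehicle level, and the high-dose libraries overlapped vehicle. With all 12 libraries its adjusted p was 0.277 at the low and 0.122 at the medium dose (edgeR). OAS3, an RNA-sensing synthetase that activates RNase L, gave 97.6, 99.7 and 109.8 CPM with vehicle, 141.4, 159.6 and 134.4 at the low dose, 125.5, 138.2 and 170.7 at the medium dose, against 115.6, 64.3 and 115.7 at the high dose. High-dose replicate 2 was the only library of OAS3 below the vehicle range, and the low and medium libraries lay above it in full. The fold changes were 1.42 and 1.41, with edgeR adjusted p = 0.518 and 0.313 on all libraries. OAS3 was named after its values were seen.

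The factors that carry the interferon signal to DNA were 4 members, and none was called against vehicle. IRF9, the DNA-binding subunit of the complex with STAT2, measured 16.8, 11.9 and 13.6 CPM with vehicle, 19.0, 19.7 and 18.8 at the low dose, 13.3, 15.8 and 18.7 at the medium dose, against 11.03, 10.9 and 9.38 at the high dose. The low-dose libraries lay above all vehicle libraries and the high-dose libraries below them, with log2 fold changes of 0.45 ± 0.14 and −0.43 ± 0.15 (SE) and edgeR adjusted p = 0.369 and 0.112; without high replicate 2 the latter was −0.46. STAT2 was at 20.7, 21.0 and 24.0 CPM with vehicle, 23.6, 22.6 and 20.2 at the low dose, 21.3, 21.1 and 23.0 at the medium dose, against 18.4, 13.4 and 19.1 at the high dose. Its high-dose value was −0.35 ± 0.12 on the log2 scale (edgeR adjusted p = 0.123), and −0.22 without replicate 2.

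IRF1, the factor most directly induced by interferon gamma and also an NF-κB target, stayed in a narrow range of 30.6 to 38.9 CPM over all 12 libraries. Its vehicle libraries measured 32.6, 34.0 and 31.6 CPM, the low-dose libraries 32.0, 34.0 and 34.2, the medium-dose libraries 33.7, 35.5 and 38.9, and the high-dose libraries 31.0, 38.4 and 30.6. The log2 fold change at the high dose was 0.02, with an interval of 2 SE from −0.17 to 0.21. The IRF1 promoter carries both the GAS shown above and an NF-κB match. Of the annotated IRF1 exon length, 22.9% overlaps an antisense gene, and whether the authors counted by strand is not given in the sources used here. IRF7, which amplifies type I interferon production, measured 30.6, 24.4 and 22.1 CPM with vehicle, 25.8, 29.3 and 27.7 at the low dose, 25.8, 23.4 and 27.8 at the medium dose, against 25.5, 26.4 and 25.1 at the high dose. All groups overlapped, and the interval at the high dose ran from −0.22 to 0.23.

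Of the 11 members that sense RNA or act on it, 0 were called against vehicle. DDX60, a helicase cofactor of RIG-I, measured 5.83, 6.03 and 6.81 CPM with vehicle, 7.83, 8.53 and 8.28 at the low dose, 5.88, 8.49 and 9.87 at the medium dose, against 4.28, 4.601 and 4.55 at the high dose. The high-dose libraries were the 3 lowest of the 12 and the low-dose libraries lay above vehicle. Against vehicle the log2 fold change at the high dose was −0.48 ± 0.16 (edgeR adjusted p = 0.121), and −0.49 without high replicate 2. OAS1, which makes the oligoadenylate that activates RNase L, gave 30.3, 24.3 and 31.2 CPM with vehicle, 34.4, 41.3 and 35.7 at the low dose, 29.1, 31.1 and 43.5 at the medium dose, against 24.0, 25.1 and 24.4 at the high dose. Its high-dose libraries were close together and overlapped only the lowest vehicle library.

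IFIT1, which binds viral RNA lacking a host cap and is among the most inducible genes of the pathway, measured 7.10, 5.97 and 7.12 CPM with vehicle, 6.49, 11.3 and 8.06 at the low dose, 5.65, 6.23 and 11.6 at the medium dose, against 4.19, 7.65 and 4.52 at the high dose. Low-dose replicates 2 and 3 and 1 library of each other treated group stood above the vehicle range, and the interval of the log2 difference at the high dose ran from −0.96 to 0.28. IFIT5, which binds single-stranded RNA and tRNA, was the only member whose 3 high-dose libraries all lay above vehicle, at 9.77, 12.9 and 9.72 CPM against 7.98, 7.85 and 8.83. In the low-dose libraries IFIT5 was at 9.38, 10.2 and 9.62 CPM and in the medium-dose libraries at 8.95, 10.3 and 12.1. The log2 fold changes were 0.24, 0.35 and 0.38 from the low to the high dose, with edgeR adjusted p = 0.132 at the high dose. The 6 members of this group not described here lay between −0.79 (OAS2) and 0.08 (IFIT2) on the log2 scale at the high dose.

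The membrane and entry restriction group had 9 tested members and 0 called against vehicle. MX1, a dynamin-like GTPase that traps influenza nucleocapsids, measured 10.3, 8.30 and 9.01 CPM with vehicle, 10.6, 17.4 and 12.6 at the low dose, 8.49, 10.9 and 18.8 at the medium dose, against 6.17, 8.07 and 5.596 at the high dose. The high-dose libraries lay below and the low-dose libraries above vehicle, and the 2 highest values came from low replicate 2 and medium replicate 3. Log2 fold changes were 0.56 ± 0.26, 0.48 ± 0.27 and −0.50 ± 0.28 from the low to the high dose, with edgeR adjusted p = 0.637, 0.533 and 0.367; the last was −0.64 without high replicate 2.

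IFITM3, which blocks virus fusion in endosomes, gave 21.6, 15.5 and 17.2 CPM with vehicle, 18.9, 21.6 and 17.3 at the low dose, 17.3, 18.7 and 25.3 at the medium dose, against 14.2, 15.3 and 15.3 at the high dose. Its high-dose libraries sat just below the lowest vehicle library. IFITM1, IFITM2 and IFITM3 are related genes with stretches of similar sequence, so reads may be shared among them. GBP1, a GTPase induced mainly by interferon gamma, was near 1 CPM in every group: 1.05, 0.76 and 1.01 with vehicle, 1.31, 1.27 and 0.90 at the low dose, 1.06, 0.91 and 1.64 at the medium dose, against 1.08, 1.49 and 0.92 at the high dose. The intervals of GBP1 against vehicle spanned 0 at all 3 doses.

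The ISG15 conjugation and ADP-ribosylation group of 8 members held the one gene called against vehicle. DTX3L, a ubiquitin ligase that works as a heterodimer with PARP9 in DNA damage and interferon signalling, measured 92.2, 93.3 and 102.6 CPM with vehicle, 103.2, 100.5 and 93.8 at the low dose, 94.8, 99.5 and 107.8 at the medium dose, against 78.8, 60.7 and 76.7 at the high dose. The 3 high-dose libraries lay below all 9 others. DTX3L fell 1.33-fold at the high dose (log2 fold change −0.41 ± 0.10, edgeR adjusted p = 0.0295), short of the 1.5-fold for a DEG. The call was lost in 7 of 20 alternatives, among them leaving out any one of the vehicle libraries, with adjusted p up to 0.23; without high-dose replicate 2 the log2 fold change was −0.30 and the adjusted p 0.00517.

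PARP9 and DTX3L lie on opposite strands of chromosome 3 (GRCh38) and overlap at their 5′ ends, with annotated starts 239 bp apart and 139 bp of shared exon; reads there can be told apart only by strand. PARP9 gave 37.5, 37.6 and 42.4 CPM with vehicle, 46.0, 52.4 and 46.7 at the low dose, 39.7, 46.5 and 56.3 at the medium dose, against 37.4, 29.9 and 33.4 at the high dose. Its low-dose libraries lay above vehicle, unlike those of DTX3L. HERC6, a HECT-type ligase, was at 8.70, 7.91 and 9.36 CPM with vehicle, 10.7, 13.5 and 12.9 at the low dose, 8.77, 10.8 and 13.9 at the medium dose, against 5.76, 8.21 and 7.47 at the high dose. ISG15 itself measured 38.5, 25.2 and 23.4 CPM with vehicle, 25.1, 27.6 and 27.1 at the low dose, 23.5, 22.6 and 28.6 at the medium dose, against 21.0, 31.7 and 20.4 at the high dose. Vehicle replicate 1 held the highest value of ISG15 and all groups overlapped; the interval at the high dose ran from −0.66 to 0.14.

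CXCL10 and CXCL11, the chemokines of the interferon pathway, draw T cells through CXCR3. CXCL10 had 93 counts over the 12 libraries, between 2 and 13 per library, or 0.28, 0.15 and 0.40 CPM with vehicle, 0.45, 0.18 and 0.49 at the low dose, 0.28, 0.23 and 0.37 at the medium dose, against 0.09, 0.78 and 0.31 at the high dose. CXCL11 had 204 counts, or 0.61, 1.00 and 0.57 CPM with vehicle, 0.79, 0.39 and 1.07 at the low dose, 0.64, 0.62 and 0.74 at the medium dose, against 0.50, 0.92 and 0.43 at the high dose. In both genes every treated group overlapped vehicle. The interval at the high dose ran from −0.89 to 1.68 on the log2 scale for CXCL10 and from −1.19 to 0.42 for CXCL11, both of which leave out the 4.04 measured for CXCL1; changes within these intervals were not detectable at this depth. The CXCL10 estimate turned from 0.39 to −0.27 without high replicate 2, and that of CXCL11 went from −0.39 to −0.71.

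**Figure D2:**
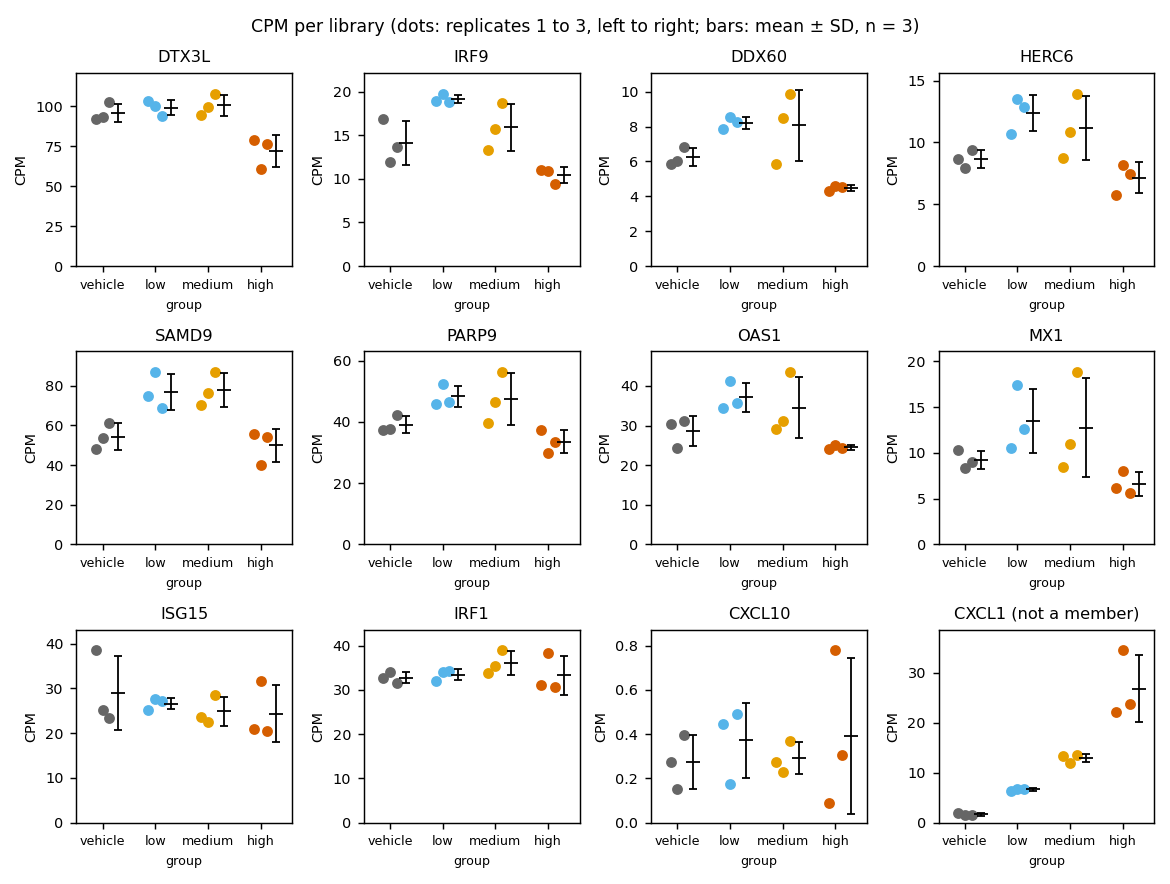
CPM (vertical axes, from 0) in each of the 12 libraries by group for 11 interferon-stimulated genes and CXCL1; dots are replicates and bars are the mean ± SD of 3 libraries. CXCL1 rises from 1.46 to 1.98 CPM with vehicle to 22.2 to 34.5 at the high dose, whereas DTX3L, IRF9, DDX60 and MX1 lie lowest at the high dose.

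Among the remaining interferon-induced genes, 8 were tested and 0 were called against vehicle, and all 8 were below 0 at the high dose. XAF1, a pro-apoptotic partner of XIAP, had the most negative value of all members, at 0.94, 0.70 and 0.97 CPM with vehicle, 1.03, 1.66 and 0.94 at the low dose, 0.96, 0.91 and 2.46 at the medium dose, against 0.41, 0.42 and 0.40 at the high dose. The high-dose libraries of XAF1 agreed closely and lay below all others, with a log2 fold change of −1.06 ± 0.46 (edgeR adjusted p = 0.225) on 297 counts in all, and −1.07 without high replicate 2. Of the XAF1 exon length, 38.3% overlaps an antisense gene. IFI27, a mitochondrial protein widely used to score interferon exposure, gave 40.1, 25.8 and 30.9 CPM with vehicle, 40.3, 37.8 and 38.2 at the low dose, 26.7, 36.0 and 40.4 at the medium dose, against 21.0, 39.2 and 25.4 at the high dose. The groups of IFI27 overlapped throughout.

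The chemokines of the NF-κB list rose in the same libraries. Of 10 chemokines 8 were tested, and 6 were upregulated DEGs at each of the upper doses and 1, CXCL1, at the low dose. The DEG share of all genes was 0.111% at the low, 0.676% at the medium and 2.93% at the high dose. CXCL1 measured 1.98, 1.46 and 1.49 CPM with vehicle, 6.36, 6.77 and 6.804 at the low dose, 13.4, 11.95 and 13.5 at the medium dose, against 22.2, 34.5 and 23.8 at the high dose. Its groups did not overlap at any step, with log2 fold changes of 2.04 ± 0.20, 3.00 ± 0.19 and 4.04 ± 0.19 and edgeR adjusted p = 0.00177, 4.28e-06 and 1.12e-07. CXCL8, the main neutrophil chemokine, rose by 2.08 at the medium and 3.08 at the high dose on the log2 scale, and CCL20, which draws CCR6-bearing cells, by 2.66 and 4.00 (edgeR adjusted p = 0.00226, 3.59e-05, 0.00188 and 1.82e-05). Without high replicate 2 the high-dose values were 3.84 for CXCL1, 2.67 for CXCL8 and 3.70 for CCL20.

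**Figure D3:**
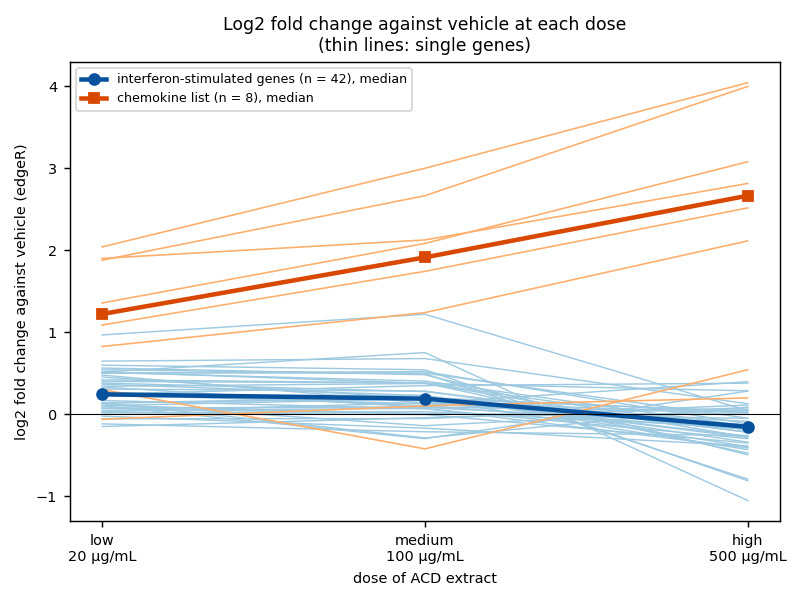
Log2 fold change against vehicle (vertical axis, edgeR) at the 3 doses (horizontal axis) for the 42 interferon-stimulated genes in blue and the 8 tested chemokines in orange; thick lines are medians and the same vehicle libraries serve every point. The chemokine median climbs from 1.22 to 2.66, and the median of the interferon-stimulated genes goes from 0.24 to −0.16.

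Library by library, the 2 lists ran apart at the high dose. The median log2 CPM of the 8 chemokines above the vehicle mean was 2.51, 2.74 and 2.17 in the high-dose libraries, where the median of the 42 interferon-stimulated genes was −0.19, −0.02 and −0.20. In the medium-dose libraries the chemokine medians were 1.46, 1.87 and 1.75 and those of the interferon-stimulated genes −0.04, 0.13 and 0.41. In the low-dose libraries they were 1.15, 1.15 and 1.202 against 0.17, 0.39 and 0.23. The vehicle libraries lay between −0.09 and 0.09 on both scores. The interferon-stimulated genes thus had their highest library medians at the low and medium doses, where the chemokines were at an intermediate level.

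**Figure D4:**
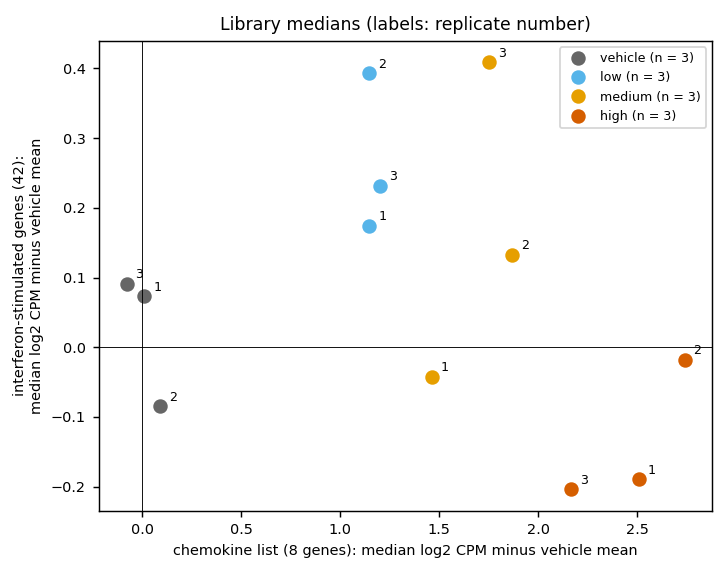
Each of the 12 libraries by its median log2 CPM minus the vehicle mean for 8 chemokines (horizontal axis) and 42 interferon-stimulated genes (vertical axis), labelled by replicate. The 3 high-dose libraries have the highest chemokine medians and interferon medians from −0.20 to −0.02, and the highest interferon medians are medium replicate 3 and low replicate 2.

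The doses were also compared with each other, a contrast chosen after the values against vehicle had been seen. The group mean was highest at the low dose for 25 members, at the medium dose for 11, at the high dose for 4 and with vehicle for 2, and it was lowest at the high dose for 28. Single libraries carried part of this: medium replicate 3 held the highest value of 18 members, low replicate 2 of 9 and high replicate 2 of 7. From the low to the high dose 7 of 42 members fell and 0 rose, beside 2.98% of all genes called and 1.54% called lower. Of these, 5 were downregulated DEGs (IRF9, DDX60, HERC6, SAMD9 and OAS1), beside 1.58% of all genes. The members' median was −0.46 with 38 of 42 below 0, where all genes had a median of 0.01 and 48.3% below 0.

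IRF9 fell 1.85-fold from the low to the high dose (log2 fold change −0.88 ± 0.14, edgeR adjusted p = 0.00416) and remained called in 20 of 20 alternatives. DDX60 fell 1.84-fold (edgeR adjusted p = 0.00958) and was called in 19 of 20. HERC6 fell 1.74-fold (edgeR adjusted p = 0.0274, 14 of 20), SAMD9 1.54-fold (0.0315, 12 of 20) and OAS1 1.52-fold (0.0485, 7 of 20). DTX3L and PARP9 fell by 0.46 and 0.52 on the log2 scale (edgeR adjusted p = 0.0253 and 0.043), called in 15 and 10 of 20. In the promoter windows of these 7 genes, 3 held an ISRE core (42.9%), 3 a GAS (42.9%) and 0 an NF-κB site. The shares over the 34 tested members with an entry were 70.6%, 32.4% and 23.5%.

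**Figure D5:**
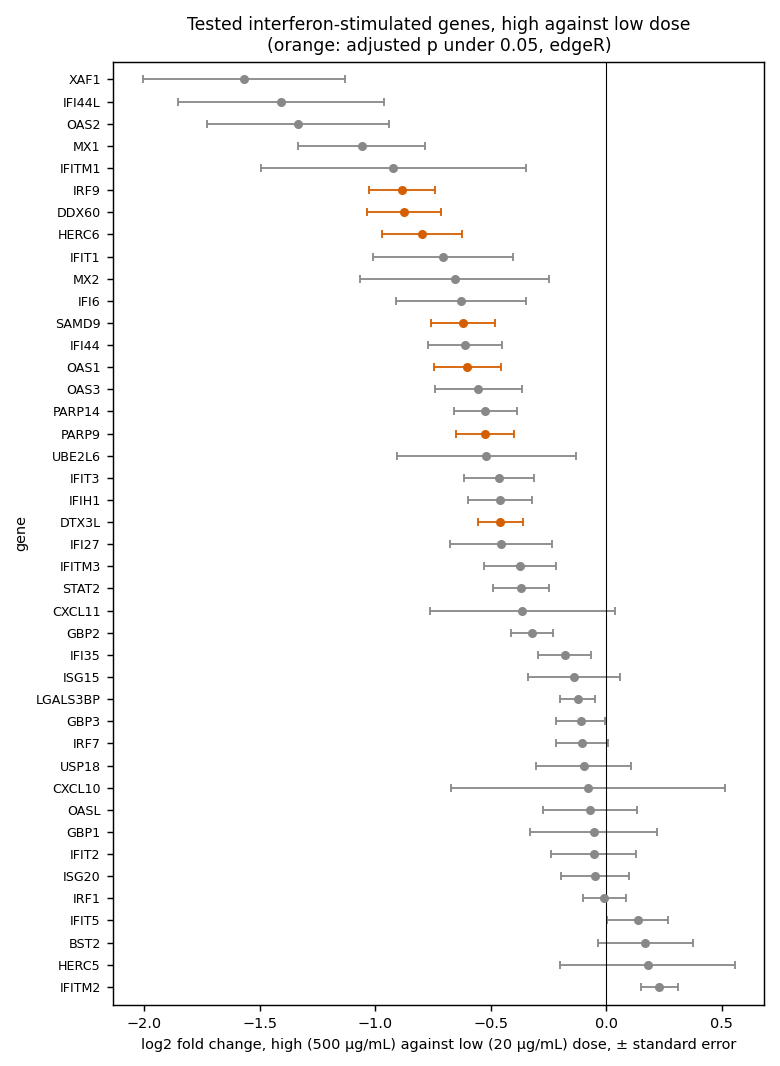
Log2 fold change of the high against the low dose (horizontal axis, bars ± standard error, 3 libraries a group) for the 42 tested members (vertical axis); orange marks an edgeR adjusted p under 0.05. The 7 orange genes all lie between −0.88 and −0.46, and 38 of 42 points lie left of 0.

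At this contrast 21 of the 42 members (50%) had every high-dose library below every low-dose library, beside 10.6% of all genes. Against vehicle, 13 of 42 (31.0%) had every low-dose library above every vehicle library, beside 11.4%, but only 5 of 42 (11.9%) did so at the medium dose, beside 14.5%, and 11 of 42 (26.2%) had every high-dose library below vehicle, beside 11.5%. Several members with larger differences missed the threshold: XAF1 at −1.57 ± 0.44, OAS2 at −1.33 ± 0.39 and MX1 at −1.06 ± 0.28, with edgeR adjusted p = 0.0849, 0.105 and 0.0646; in all 3 the low-dose replicate 2 stood well above the other low-dose libraries. From the medium to the high dose 2 members fell, DDX60 and DTX3L (edgeR adjusted p = 0.028 and 0.0441), beside 0.891% of all genes called and 0.319% called lower; 1 was a DEG, DDX60, beside 0.488%. Between the low and the medium dose 0 were called, beside 0.143%, with 0 higher and 1 lower at an unadjusted p under 0.05 and 0 called by DESeq2. The high-dose replicate 2 differed from the other high-dose libraries by a median of 0.40 on the log2 scale in the shorter 21 members and 0.08 in the longer 21. The difference between the low and the high dose also went with exon length: its median was −0.55 in the longer 21 and −0.16 in the shorter 21, or −0.48 and −0.36 without high replicate 2. All 7 called members were in the longer group, with 5768 to 17337 bp, and the part of length in the result was not tested.

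The number of members called between the low and high doses changed when single libraries were left out. It was 1 without low replicate 2, 2 without low replicate 3 or medium replicate 2, 3 without low replicate 1 or high replicate 3, 4 without vehicle replicate 2, and 10 without high replicate 2 or medium replicate 3. In each of these fits every called member was lower at the high dose. The share of all genes called in each fit is not given here, so these counts have no background beside them. Without high replicate 2 the median was −0.41, and 6 of the 7 genes remained called; OAS1 did not (edgeR adjusted p = 0.0685).

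Upstream of the members, the interferon and receptor genes gave few calls. IFNE, at 4.73, 4.79 and 5.19 CPM with vehicle, was at 4.02, 3.42 and 3.72 at the low dose, 4.04, 4.08 and 3.44 at the medium dose, against 3.29, 3.40 and 3.87 at the high dose. All treated libraries of IFNE lay below vehicle, and it fell by 0.47 on the log2 scale at the high dose (edgeR adjusted p = 0.041). Among 13 tested receptor, kinase and regulator genes 1 was called at the high dose (7.69%), beside 5.77% of all genes. It was IFNGR1, a chain of the interferon gamma receptor, which rose (log2 fold change 0.73, edgeR adjusted p = 0.0313). Its level went from 59.9, 59.0 and 61.5 CPM to 81.4, 140.6 and 77.5, with replicate 2 far above the others. Without that library the log2 fold change of IFNGR1 was 0.40 (edgeR adjusted p = 0.000168), below 1.5-fold. In the same fit TYK2 was also called higher (log2 fold change 0.23, edgeR adjusted p = 0.0296). The share of all genes called without that library is not given here.

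Of 12 tested sensors and kinases, 0 were called at the high dose against vehicle, beside 5.77% of all genes. Without high replicate 2, TRAF3 was called higher (log2 fold change 0.39, edgeR adjusted p = 0.000944). From the low to the high dose 2 fell (16.7%), beside 2.98% of all genes called and 1.54% called lower. DDX58, which encodes the RNA sensor RIG-I, fell by 0.60 and DHX58, its regulator LGP2, by 0.81 on the log2 scale (edgeR adjusted p = 0.0329 and 0.0303). Without high replicate 2 these falls were 0.66 and 0.71. In that fit TRAF3 and TICAM1 were called higher, by 0.31 and 0.35 (edgeR adjusted p = 0.01 and 0.0264). Of 29 tested further interferon-stimulated genes outside the list, 1 rose and 1 fell at the high dose (6.9%), beside 5.77% of all genes. WARS, the tryptophanyl-tRNA synthetase that interferon gamma induces and that also belongs to the aminoacyl-tRNA synthetase set, went from 87.1, 88.2 and 87.7 CPM to 145.5, 139.5 and 144.6, or 1.63-fold (edgeR adjusted p = 3.59e-05). TRIM5, a capsid-binding restriction factor, fell by 0.29 on the log2 scale (edgeR adjusted p = 0.0358). Without high replicate 2 the log2 fold changes of IFNE, WARS and TRIM5 were −0.44, 0.73 and −0.31, all still called. More of the further genes were called in that fit, and so were the epithelial markers CDX2 and VIL1 (edgeR adjusted p = 0.0187 and 0.0223). The share of all genes called in that fit is not given here, so its calls have no background beside them. RNF213 was called higher (log2 fold change 0.53, edgeR adjusted p = 0.0198). PLSCR1, SP110 and TRIM21 were called lower (−0.33, −0.45 and −0.38, edgeR adjusted p = 0.0071, 0.0302 and 0.013). From the low to the high dose 1 of the 29 rose and 1 fell (6.9%), beside 2.98% of all genes. Their median was −0.19, with 22 below 0. Without high replicate 2 more were called lower at this contrast, among them CMPK2, EPSTI1 and PLSCR1 (edgeR adjusted p = 0.0276, 0.0142 and 0.000606), while WARS remained higher.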

How the data were processed

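RNA was sequenced in 12 HT29 libraries (directional kit, paired-end reads). Per the study's methods and the submitters' processing notes, the authors used Trim Galore for trimming, STAR for alignment and RSEM 1.3.3 for gene-level estimates, on the GRCh38 Ensembl 84 annotation; the strand setting is not given in the sources used here. The deposited values are expected counts per gene, not normalized, which were rounded. In edgeR 4.0.16 (R 4.3.3), low genes were removed with filterByExpr, TMM factors were computed, and 1 robust quasi-likelihood model of 4 groups was fitted; p-values were Benjamini-Hochberg adjusted over 15374 genes. The procedure was tested on simulated counts. DESeq2 1.42.0 was an alternative. Exon lengths came from GENCODE 44. Members and lists were chosen with earlier results of these data known. Values were printed for members called in any comparison, the 6 smallest p-values at the high dose, and a set of textbook genes; others named for an extreme value were chosen after values were seen. Whether replicate numbers pair the libraries is not given in the sources used here, and the main fit had no replicate block. Depth limits genes near 1 CPM, and intervals are 2 SE. One gene of the receptor and kinase list is not reported here.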

Additional observations from a re-analysis of the deposited data

How the results depend on the processing

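No called value changed direction in the alternatives run, while values near 0 did, such as the median between medium and low and CXCL10. Against vehicle, the members called were 0 at the high dose when only the 2 groups were fitted (DESeq2 or edgeR). At the medium dose they were 1 with DESeq2 on all libraries and 2 in either 2-group fit, and at the low dose 3 with DESeq2 and 1 with edgeR on 2 groups, all higher. From the low to the high dose, DESeq2 called 12 members on all libraries (9 DEGs) and 12 on 2 groups (10 DEGs), and edgeR on 2 groups called 2 (2 DEGs). From the medium to the high dose the counts were 8 (6 DEGs) with DESeq2 on all libraries, 1 with DESeq2 and 0 (0 DEGs) with edgeR on 2 groups, and 6 (4 DEGs) with no filter. Deviations from the group mean correlated between libraries at −0.495 to 0.372 for the same replicate number and −0.536 to 0.541 for other numbers. Of 12 libraries, 4 correlated best with their own number. With 3 libraries in a group these values cannot show whether replicate numbers share a batch. The replicate block gave 4 members (3 DEGs) between low and high and 1 between medium and high. For these alternatives the share of all genes called is not given here, so their member counts have no background beside them.

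Leaving out 1 library at a time, members called ranged from 0 to 2 (high against vehicle), 0 to 3 (medium), 0 to 2 (low), 1 to 10 (high against low, 1 to 8 DEGs) and 0 to 5 (high against medium, 0 to 2 DEGs). The medians ranged from −0.24 to −0.09, 0.04 to 0.28, 0.17 to 0.30, −0.46 to −0.38 and −0.44 to −0.18, and between medium and low from −0.19 to 0.05. The cause of these shifts was not tested, and the shares of all genes called in these fits are not given here.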
